A study of Mus musculus with 6 samples.

Results

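Macrophages are the phagocytes that live in every tissue, and in bone marrow they clear dying cells and nuclei shed by maturing red cells. They are recognised by scavenger and lectin receptors, by lysosomal and secreted proteins, and by complement: they make C1q, the protein that starts the classical complement pathway when it meets antibody or dying cells, and they sense the complement fragment C3a through its receptor C3ar1. Several of these genes are also read in other blood cells, so a change in 1 of them does not by itself name a cell type. The 10 genes described here are C3ar1, the C1q chain genes C1qa, C1qb and C1qc, Mrc1, Cd68, Adgre1, Cd5l, Lyz2 and Aif1, and every probe set annotated to 1 of them alone was kept. That gave 14 probe sets out of 45037 tested and 10 genes out of 18193 measured. The genes were chosen by name, with the dKO minus control values of these same arrays, the measure described below, already known. Those values of the 10 genes are therefore a description, given without a test.

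The cells were long-term haematopoietic stem cells, sorted from bone marrow as Lin-Sca1+CD150+CD48- cells. The dKO mice carried MxCre with the floxed alleles c-myc f2 and N-myc f2, and the control mice carried the floxed alleles without MxCre (the label of 1 control array spells the allele M-Myc f2). All mice had a mixed background and were 8 weeks old, and both groups were given pI-pC, a synthetic double-stranded RNA that induces interferon, in 2 daily treatments that ended 3 days before the marrow was taken. MxCre is driven by an interferon-responsive promoter, so it is not confined to stem cells and can act in macrophages and other marrow cells. There were 3 arrays per group, hybridised with RNA from pools of 3 dKO or 2 control mice. Macrophages carry lineage and adhesion antigens that such a sort is meant to leave out, and the number of mature cells left in a pool is not known.

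Expression is given as RMA values in log2 units, so that a difference of 1 is a 2-fold change. The median value of an array was 5.90 to 5.97, and arrays of a group correlated at 0.974 or more over the probe sets. The 3 negative control probe sets read between 2.13 and 3.92, which is used below as the background range. A probe set whose group mean lies in it has only a bound there, and its fold is then given against 3.92 as "at least". The deleted genes matched the labels: Myc was lower in dKO arrays by 2.93 ± 0.20 (SE, log2, limma adjusted p = 0.00137), and the dKO mean of the Mycn probe set 1417155_at, 3.46, lay in the background range, against 10.81 in control arrays. The brightest Mycn probe set, 1425922_a_at, stayed above the background range in dKO arrays, at 7.71, 7.08 and 7.20. It read 9.23, 8.70 and 8.89 in control arrays, a difference of -1.61 ± 0.22 (SE, log2, limma adjusted p = 0.00938). A dim Mycn probe set, 1425923_at, differed by -0.08 (limma adjusted p = 0.858). The Gapdh 3' minus 5' difference, which reflects the state of the RNA, ran from 2.39 to 2.47 in dKO arrays and 2.12 to 2.36 in control arrays, so it separated the groups as some of the genes below did. Its part in these results was not tested. Since each array is a bulk sample, fewer cells of a type and less RNA per cell cannot be told apart in any value that follows.

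The macrophage genes did not move as 1 block. For C3ar1, Mrc1 and C1qb, 6 probe sets read at least 2-fold higher on average in dKO arrays with no overlap between the groups, whereas the other 8 probe sets had differences between -0.46 and 0.49 on the log2 scale. Of the 14 probe sets, 8 were higher in dKO arrays without overlap, 1 was lower without overlap and 5 overlapped. Over the whole array 27.4% of probe sets had groups without overlap, 13.4% higher and 14.0% lower in dKO arrays. By gene, 5 were higher, 1 was lower and 4 overlapped, beside 15.8% higher and 14.2% lower over all genes. Those 6 probe sets also had a limma adjusted p below 0.05, and 6.99% of all probe sets did, 3.57% higher and 3.41% lower, but the list was chosen with this contrast known and nothing is read from the counts. With 1 array left out, 1 to 3 of the 6 stayed below it: 1 without control replicate 1, 2 without dKO replicate 2 or control replicate 3, and 3 without any of the others. By the brightest probe set of each gene, the median difference of the 10 genes was 0.33, beside 0.01 over all 18193 genes.

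**Figure D1:**
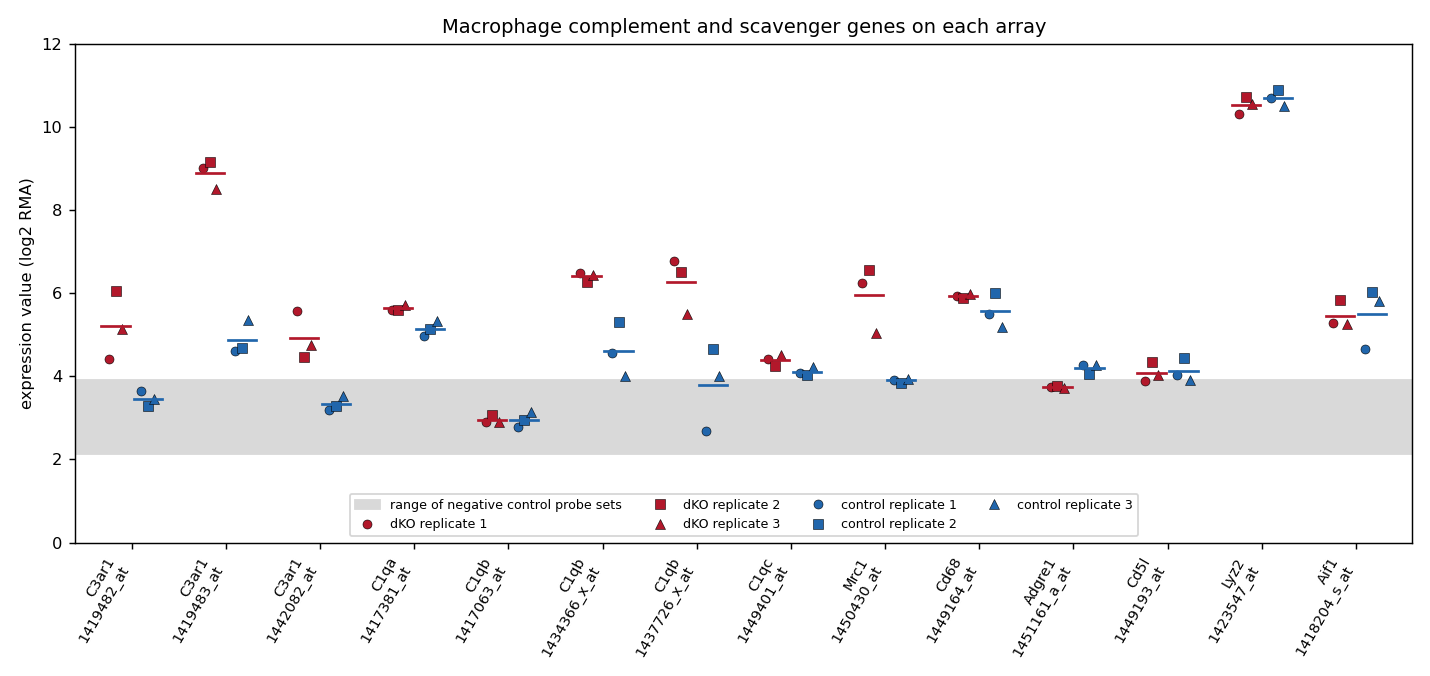
Expression values (log2 RMA) of the 14 probe sets on each array, dKO arrays in red to the left and control arrays in blue to the right of each position, with marker shape giving the replicate number, short lines the group means and the grey band the negative control range, 2.13 to 3.92. C3ar1 probe set 1419483_at stands between 8.51 and 9.17 in dKO arrays and between 4.60 and 5.35 in control arrays, while Lyz2, Cd68, Aif1 and Cd5l overlap between the groups.

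C3ar1 encodes the receptor for the anaphylatoxin C3a, a G protein-coupled receptor of macrophages, mast cells and other myeloid cells. Its brightest probe set, 1419483_at, read 9.02, 9.17 and 8.51 in dKO arrays 1, 2 and 3, against 4.60, 4.69 and 5.35 in control arrays 1, 2 and 3. Every dKO array lay at least 3.16 above every control array, beside a range of 0.65 among dKO and 0.75 among control arrays. The means were 8.90 ± 0.34 in dKO and 4.88 ± 0.41 in control arrays (SD, n = 3 each), a difference of 4.02 ± 0.26 (SE) or 16.2-fold. Taken 1 dKO array at a time, the level was 17.6-, 19.5- and 12.4-fold the control mean, so no single dKO pool made the difference.

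The other C3ar1 probe sets were dimmer and pointed the same way. Probe set 1419482_at read 4.41, 6.06 and 5.14 in dKO arrays, against 3.65, 3.28 and 3.46 in control arrays. Probe set 1442082_at read 5.56, 4.46 and 4.75 in dKO arrays, against 3.18, 3.29 and 3.52 in control arrays. All control values of both lay in the background range, so their differences, 1.74 ± 0.38 and 1.59 ± 0.28 (SE, log2), are at least 2.44-fold and at least 2.01-fold. The dKO arrays took a different order on each C3ar1 probe set: replicate 2 was highest on 1419483_at and 1419482_at and lowest on 1442082_at. The order of the pools for this gene is therefore not fixed by these values, although all 9 dKO readings exceeded all 9 control readings of their own probe set.

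C1q is built from chains encoded by C1qa, C1qb and C1qc, which stand side by side on mouse chromosome 4, in the order C1qb, C1qc, C1qa, in the RefSeq genes of assembly GRCm38.p6. All chains are needed for the protein, and macrophages make them together. On these arrays the chains differed in size of change. The brightest C1qb probe set, 1434366_x_at, read 6.50, 6.28 and 6.43 in dKO arrays, against 4.55, 5.30 and 4.0 in control arrays, a difference of 1.79 ± 0.31 (SE, log2) or 3.45-fold. The control arrays were the more scattered group here, with a range of 1.30 against 0.21 among dKO arrays.

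The remaining C1qb probe sets disagreed with each other. Probe set 1437726_x_at read 6.77, 6.52 and 5.49 in dKO arrays, against 2.69, 4.67 and 4.0 in control arrays, and the control mean of 3.79 lay in the background range, so the level was at least 5.08-fold higher in dKO arrays (measured difference 2.47 ± 0.54 SE, log2). Probe set 1417063_at read 2.89, 3.07 and 2.91 in dKO arrays, against 2.77, 2.94 and 3.15 in control arrays. It was in the background range on all 6 arrays and so gives no measure of the gene. Both higher C1qb probe sets hold the same value, 4.0025, for control replicate 3 and different values on the other arrays, and whether they share probes was not tested. Their names end in _x_at, which on this array type marks probes that may also match other transcripts, and whether such transcripts contribute was not tested. With the mean over its 3 probe sets C1qb differed by 1.42 ± 0.25 (SE, log2).

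C1qa and C1qc were barely higher. C1qa read 5.60, 5.60 and 5.71 in dKO arrays, against 4.97, 5.15 and 5.33 in control arrays, a difference of 0.49 ± 0.14 (SE, log2) or 1.40-fold. C1qc read 4.42, 4.25 and 4.51 in dKO arrays, against 4.07, 4.04 and 4.22 in control arrays, a difference of 0.29 ± 0.14, with groups only 0.04 apart at the closest. Neither gene's groups overlapped, but the sizes were within 0.3 to 0.5 and the C1qc values lay within 0.6 of the top of the background range.

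Mrc1 encodes the mannose receptor CD206, a lectin that takes up glycoproteins and marks tissue macrophages and sinusoidal endothelium. It read 6.26, 6.56 and 5.05 in dKO arrays, against 3.92, 3.85 and 3.94 in control arrays. The control arrays sat at the top of the background range within 0.09 of each other, whereas the dKO arrays spanned 1.51, with replicate 3 the lowest. The control mean of 3.90 makes this at least 4.11-fold higher in dKO arrays (measured difference 2.05 ± 0.36 SE, log2).

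Promoter sequence from RefSeq (GRCm38.p6) was at hand for 8 of the 10 genes: C3ar1, C1qb, C1qc, Mrc1, Cd68, Cd5l, Lyz2 and Aif1. The 250 bases before the gene start are shown 5' to 3' for the genes with the largest differences and for Lyz2, the brightly read gene whose groups overlapped. Capitals mark matches, on either strand, to AGGAAG, the core of sites bound by PU.1, the main macrophage transcription factor, and its relatives, or to TGANTCA, the site of AP-1 factors. Both strings were chosen with the sequences in view.
C3ar1, chr6:122856158-122856407, minus strand: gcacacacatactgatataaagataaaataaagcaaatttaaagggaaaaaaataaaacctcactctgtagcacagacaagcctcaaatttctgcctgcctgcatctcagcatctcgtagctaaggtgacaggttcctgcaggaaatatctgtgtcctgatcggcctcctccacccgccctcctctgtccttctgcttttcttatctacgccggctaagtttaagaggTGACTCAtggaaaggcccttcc
Mrc1, chr2:14229164-14229413, plus strand: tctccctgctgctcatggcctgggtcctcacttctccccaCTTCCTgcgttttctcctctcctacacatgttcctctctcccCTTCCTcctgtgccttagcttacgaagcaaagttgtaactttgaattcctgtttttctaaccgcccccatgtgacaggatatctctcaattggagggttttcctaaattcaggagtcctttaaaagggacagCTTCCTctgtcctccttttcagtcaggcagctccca
C1qb, chr4:136886201-136886450, minus strand: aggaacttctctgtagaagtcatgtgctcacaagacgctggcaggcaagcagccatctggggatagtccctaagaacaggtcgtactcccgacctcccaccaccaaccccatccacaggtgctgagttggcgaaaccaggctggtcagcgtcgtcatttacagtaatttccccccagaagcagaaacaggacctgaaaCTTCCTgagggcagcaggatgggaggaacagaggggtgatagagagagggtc
Lyz2, chr10:117282273-117282522, minus strand: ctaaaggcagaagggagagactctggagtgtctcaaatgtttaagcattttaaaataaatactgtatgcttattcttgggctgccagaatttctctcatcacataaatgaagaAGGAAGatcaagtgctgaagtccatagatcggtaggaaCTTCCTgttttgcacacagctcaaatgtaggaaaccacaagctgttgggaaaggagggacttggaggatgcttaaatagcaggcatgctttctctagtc
C3ar1 held TGACTCA 22 bases before its start and no AGGAAG. Mrc1 had 3 matches to AGGAAG, at 210, 168 and 36 bases before the start, C1qb had 1, at 52 bases, and Lyz2 had 2, at 137 and 99 bases. AGGAAG was found in 5 of the 8 promoters and in 29.2% of 27025 gene promoters of the same length, and TGANTCA in 2 of the 8, C3ar1 and Cd68, and in 6.87% of all. The longer PU.1 site GAGGAAGT, which contains AGGAAG, matched in C1qc alone (2.44% of all promoters), and the interferon-stimulated response element, searched as a pair of GAAA runs with 2 free bases between them, in Aif1 alone (3.04%). The Myc-type E-box CACGTG was in none of the 8 windows and in 6.05% of all promoters. Mrc1 and C1qb thus shared AGGAAG with Lyz2, whereas C3ar1 differed from Lyz2 in both strings. Since the strings were chosen with the sequences in view, nothing is read from this. A match is letters only, with no binding measured.

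Cd68, Adgre1 and Cd5l, which a macrophage would also carry, were not higher in every dKO array. Cd68 encodes macrosialin, a lysosomal scavenger protein, and read 5.94, 5.88 and 5.99 in dKO arrays, against 5.51, 6.01 and 5.19 in control arrays, so control replicate 2 exceeded every dKO array (difference 0.36 ± 0.22 SE, log2). Adgre1 encodes a surface receptor widely used to stain mouse macrophages. It read 3.73, 3.77 and 3.71 in dKO arrays, against 4.26, 4.05 and 4.28 in control arrays, so all dKO values lay below all control values, as for no other member (measured difference -0.46 ± 0.13 SE, log2). All dKO values of Adgre1 lay in the background range and the control values lay within 0.4 of its top. Only the control mean of 4.20 against 3.92 therefore bounds the fall. Cd5l, a secreted scavenger-domain protein of tissue macrophages, read 3.90, 4.34 and 4.04 in dKO arrays, against 4.03, 4.45 and 3.92 in control arrays. Its groups overlapped close to background.

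Lyz2 encodes lysozyme M, an abundant secreted enzyme of macrophages, monocytes and granulocytes. It was bright on all arrays, at 10.32, 10.72 and 10.55 in dKO arrays, against 10.71, 10.90 and 10.51 in control arrays. The groups overlapped and the difference was -0.18 ± 0.17 (SE, log2). Granule genes of neutrophils, which also make lysozyme, had a summed level, on the linear scale, over 13 genes. It was 436 to 1418 in dKO arrays and 1009 to 2908 in control arrays, with overlap. Mpo and S100a9 had the highest mean of the list in both groups, so they weighed most in the sum. Aif1, which encodes the actin-binding protein Iba1 of macrophages and microglia, read 5.28, 5.84 and 5.27 in dKO arrays, against 4.66, 6.03 and 5.82 in control arrays. It had the widest control range of the genes whose groups overlapped, 1.38, with control replicate 1 the lowest and control replicate 2 above every dKO array.

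Array by array, the macrophage genes also took different orders. Among dKO arrays, replicate 2 was highest for 6 of 10 genes (C3ar1, Mrc1, Adgre1, Cd5l, Lyz2 and Aif1), replicate 3 for C1qa, C1qc and Cd68, and replicate 1 for C1qb. Over all genes these shares were 33.3% for replicate 2, 31.5% for replicate 3 and 35.2% for replicate 1. These highest arrays were the same under quantile normalization, median centring and the mean over probe sets. Replicate 2 was at the same time the lowest dKO array for C1qa, C1qb, C1qc and Cd68, except C1qa under either other scaling and C1qb by the mean over probe sets. C3ar1 and Mrc1 shared the order 2, 1, 3 from high to low, and so did Adgre1 and Aif1 except under median centring. The dimmer C3ar1 probe sets ran 2, 3, 1 (1419482_at) and 1, 3, 2 (1442082_at). The dKO arrays spanned only 0.05 for Adgre1, all in the background range, and 0.11 for C1qa and for Cd68. The order of the dKO arrays for these 3 genes therefore carries little weight. Among control arrays, replicates 2 and 3 were each highest for 5 genes and replicate 1 for none, beside 31.8%, 35.4% and 32.8% of all genes. After quantile normalization replicate 1 was highest for Mrc1 and Adgre1 and replicate 3 for 3 genes. No dKO array was high for all of the genes, and none was low for all of them.

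**Figure D2:**
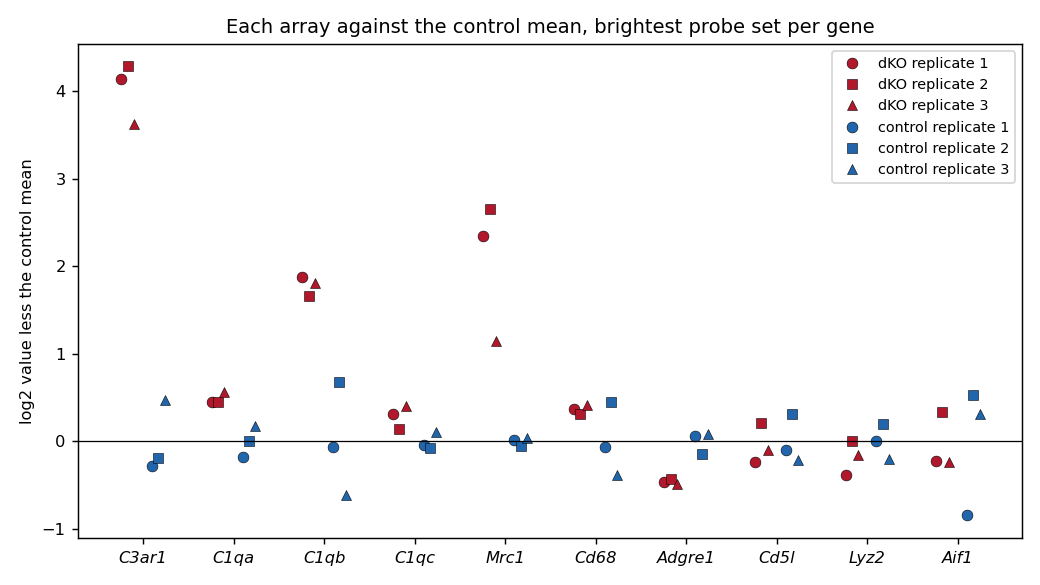
Log2 value of each array less the control mean, for the brightest probe set of each of the 10 genes, with dKO arrays in red to the left, control arrays in blue to the right and marker shape for the replicate number. All dKO arrays stand at 3.63 or more for C3ar1, between 1.66 and 1.88 for C1qb and between 1.15 and 2.66 for Mrc1, and near the control arrays for the other 7 genes.

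The rest of the complement system was examined with genes listed by role. These lists were made by function, also with earlier results of these arrays known. limma's test across all 45037 probe sets is given for their genes, by the brightest probe set of each. Over all 18193 genes, 4.49% were called higher and 3.56% lower. Of 18 measured complement proteins other than C1q, 1 rose and 17 did not pass (median -0.03). The gene that rose was Cfp, which encodes properdin, the leukocyte-made protein that stabilises the alternative pathway convertase. It read 8.97, 9.86 and 9.37 in dKO arrays, against 6.05, 6.51 and 7.54 in control arrays, without overlap, a difference of 2.70 ± 0.40 (SE, log2) or 6.48-fold (limma adjusted p = 0.0117). A further Cfp probe set, 1447537_at, differed by 0.41 (adjusted p = 0.757). The protease Masp2 of the lectin pathway (-0.95 ± 0.25, adjusted p = 0.0695), the lectin Mbl1 (-0.48 ± 0.20, adjusted p = 0.21) and C8b of the membrane attack complex (-0.21 ± 0.14, adjusted p = 0.441) were next by p and did not pass. Masp2 passed with the filter on mean level (0.0366), and its other probe set differed by -0.10.

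Complement receptors other than C3ar1 had 3 of 9 measured genes higher and 6 that did not pass (median 0.32). Itgax and Itgb2 encode the chains of complement receptor 4, CD11c and CD18. Itgax read 7.61, 6.97 and 7.27 in dKO arrays, against 4.17, 4.77 and 4.32 in control arrays, a difference of 2.86 ± 0.22 (SE, log2) or 7.26-fold (limma adjusted p = 0.00212). Itgb2, the CD18 chain shared with other leukocyte integrins, read 9.94, 9.66 and 9.80 in dKO arrays, against 8.03, 8.37 and 7.78 in control arrays, a difference of 1.74 ± 0.18 or 3.33-fold (limma adjusted p = 0.00435). Both kept their call with any 1 array left out. Calr, calreticulin, a chaperone that also binds C1q at the cell surface, rose by 0.84 ± 0.13 (limma adjusted p = 0.015), a call lost without dKO replicate 1 or 2 (adjusted p up to 0.056) and with the replicate number as a block (0.0525). Cd93, once proposed as a C1q receptor, differed by 0.40 ± 0.15 (adjusted p = 0.182). The C5a receptor gene C5ar1, the closest relative of C3ar1 on the list and named after its value was seen, read 5.82, 5.79 and 5.37 in dKO arrays, against 5.08, 5.45 and 5.49 in control arrays, with overlapping groups.

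Of 10 measured complement regulators, 2 fell and 8 did not pass (median -0.21). Cd46, a membrane cofactor that limits complement, fell by 2.23 ± 0.37 (SE, log2, limma adjusted p = 0.0168). It read 3.82, 3.56 and 4.48 in dKO arrays, against 6.55, 5.43 and 6.58 in control arrays. Of the dKO values, 2 lay in the background range and the mean, 3.95, just above it, so the size of the fall is uncertain. Cd46 kept its call only without control replicate 2 or dKO replicate 3 (adjusted p up to 0.0634 otherwise). C1qbp, a mitochondrial matrix protein first isolated as a binder of C1q, fell by 1.11 ± 0.14 (limma adjusted p = 0.00666). Cd55, which speeds the decay of the convertases, and Clu, clusterin, had differences of -0.69 ± 0.18 (adjusted p = 0.0699) and -1.18 ± 0.31 (adjusted p = 0.0715). Both passed with the filter on mean level (0.0367 and 0.0377), Cd55 also with the trended robust prior (0.034) and Clu without dKO replicate 2 (0.0481). Another Clu probe set, 1418626_a_at, passed with all arrays (-0.82, adjusted p = 0.042).

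Scavenger, lectin and dead-cell uptake receptors had few calls. Among the 28 genes measured, 1 rose, 1 fell and 26 missed the threshold (median -0.03). Clec7a, dectin-1, the beta-glucan receptor of macrophages, dendritic cells and neutrophils, read 4.69, 5.22 and 5.84 in dKO arrays, against 3.46, 3.67 and 3.62 in control arrays. The control values lay in the background range, so it was at least 2.52-fold higher in dKO arrays (measured difference 1.66 ± 0.28 SE, log2, limma adjusted p = 0.0175), and it kept its call only without dKO replicate 1 or 3 (adjusted p up to 0.0585 otherwise). Scarb2, a lysosomal membrane protein, fell by 0.69 ± 0.15 (limma adjusted p = 0.0375). Its call held only without dKO replicate 2 among the left-out arrays (adjusted p up to 0.113 otherwise), was lost with each array centred on its median (adjusted p = 0.0523) and with the replicate block (0.0862), and a further Scarb2 probe set differed by 0.10. Mfge8, which bridges dying cells to phagocytes (-0.54 ± 0.17, adjusted p = 0.116), and the chemokine scavenger Cxcl16 (-0.39 ± 0.13, adjusted p = 0.127) did not pass.

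Other genes of macrophages and monocytes were examined in the same way. Of 23 measured, 2 rose and 21 did not pass (median 0.07). The summed level of the list, on the linear scale, was 1630 to 2072 in dKO arrays. It was 1323 to 1843 in control arrays, with overlap. Ctss had the highest mean, 8.95 in dKO and 8.88 in control arrays, so it weighed most in the sum. Its groups overlapped (difference 0.07 ± 0.32 SE, log2). The list's median log2 value ran from 5.72 to 5.95 in dKO arrays and 5.12 to 5.64 in control arrays, without overlap. With limma's p left unadjusted, 5 genes were higher and 0 lower at the threshold used for the adjusted p. Of its genes, 3 were higher and 2 lower in dKO arrays without overlap. Fcgr1, the high-affinity receptor for IgG, rose by 0.91 ± 0.19 (SE, log2, limma adjusted p = 0.0355) on its brighter probe set, while 1436625_at differed by -0.12 (adjusted p = 0.82). In the same list the haem-degrading enzyme Hmox1 rose by 0.96 ± 0.20 (limma adjusted p = 0.0324). Both calls held only without dKO replicate 3 among the left-out arrays, with adjusted p up to 0.103 and 0.101 otherwise, and both were lost with the replicate block (0.0603 and 0.0784). Ccr2, the chemokine receptor of inflammatory monocytes, read 6.39, 7.50 and 8.18 in dKO arrays, against 4.94, 6.62 and 4.65 in control arrays, and its overlapping groups did not pass (adjusted p = 0.115). Another Ccr2 probe set, 1421186_at, differed by 2.26 (adjusted p = 0.0267). Lgals3, galectin-3, differed by 1.40 ± 0.46 (adjusted p = 0.127). Vcam1, also named after its values were seen, did not pass on its brightest probe set (0.31, limma adjusted p = 0.57). Its dimmer probe sets 1448162_at and 1415989_at did, with differences of 2.11 (limma adjusted p = 0.0433) and 0.99 (0.032). Named after their values were seen, Csf1r, the growth factor receptor that macrophages depend on, read 6.23, 6.25 and 5.62 in dKO arrays, against 5.94, 6.18 and 6.36 in control arrays. Cd14, the monocyte endotoxin co-receptor, read 4.34, 4.33 and 4.19 in dKO arrays, against 4.30, 4.32 and 4.13 in control arrays. Both overlapped between the groups, as did Siglec1, the sialoadhesin of marrow macrophages, at 5.79, 5.50 and 5.96 in dKO arrays, against 5.90, 5.77 and 5.80 in control arrays.

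**Figure D3:**
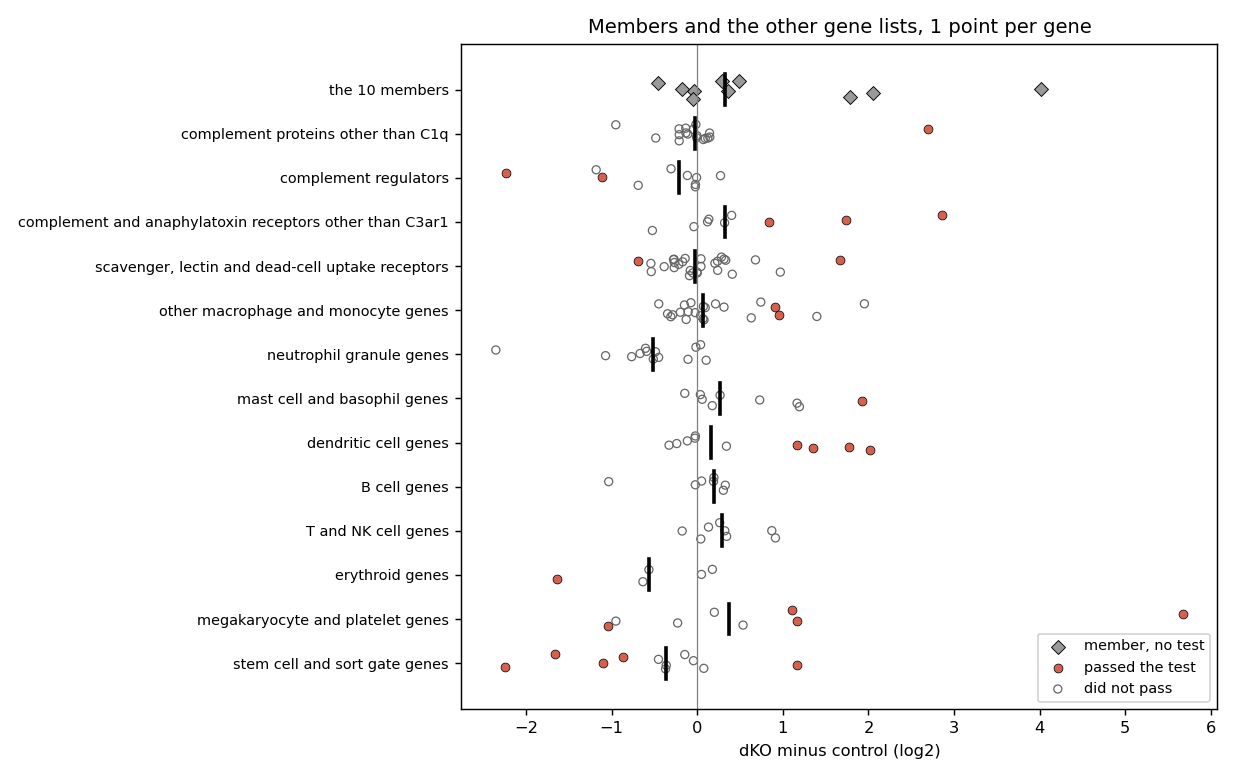
Log2 difference, dKO minus control, of each gene by its brightest probe set, for the 10 members (grey diamonds, no test) and for the 13 other lists (filled circles passed a limma adjusted p of 0.05, open circles did not), with a bar at each list's median. C3ar1 at 4.02 stands to the right of every complement, scavenger and macrophage gene, of which Itgax at 2.86 and Cfp at 2.70 come next.

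Markers of other cells that might be present in the sort moved beside these genes in several lists. Of 10 measured dendritic cell genes, 4 rose, all of the MHC class II presentation machinery that B cells and activated macrophages also use: H2-Aa (2.02 ± 0.24 SE, log2), Cd74 (1.77 ± 0.20), H2-Eb1 (1.35 ± 0.17) and H2-Ab1 (1.17 ± 0.27). Further H2-Aa probe sets differed by 1.17 (1438858_x_at, adjusted p = 0.0329), 1.26 (1452431_s_at, 0.227) and 0.07 (1443783_x_at, 0.82), and further H2-Ab1 probe sets by 0.57 and 0.56 (0.207 and 0.155). For the brightest probe sets the limma adjusted p values were 0.00609, 0.00542, 0.00675 and 0.0498, and H2-Ab1 no longer passed whichever array was left out (up to 0.142), after quantile normalization (0.0591), with array weights (0.0589) and with the replicate block (0.0791). The summed level of the dendritic list, on the linear scale, was 1759 to 2310 in dKO arrays and 823 to 1077 in control arrays. The 4 genes that rose were the brightest of the list in dKO arrays, so they weighed most there. The other 6, Siglech, Bst2, Xcr1, Zbtb46, Ccr9 and Ciita, named after their values were seen, did not pass. On their brightest probe sets the differences ran from -0.33 to 0.34, and only that of Ciita was above 0. Dimmer probe sets varied more, such as Ccr9 1421919_a_at at 0.32 and Zbtb46 1453856_at at -0.66 (limma adjusted p = 0.23 and 0.554). Of 9 mast cell and basophil genes, Fcer1a, the alpha chain of the IgE receptor, rose by 1.93 ± 0.42 (limma adjusted p = 0.0406), a call kept only without control replicate 3 among the left-out arrays (up to 0.122 otherwise) and lost with the replicate block (0.0605). The basophil protease Mcpt8 (1.17 ± 0.40), mast cell carboxypeptidase Cpa3 (1.19 ± 0.46) and the tryptase Tpsab1 (0.18 ± 0.14) did not pass. That list's summed level was 387.5 to 618 in dKO arrays and 239 to 337 in control arrays. No mast cell or dendritic cell gene measured had both group means in the background range.

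Of 8 megakaryocyte and platelet genes, 3 rose and 1 fell, with a summed level of 7303 to 11585 in dKO arrays and 3410 to 3994 in control arrays. Ppbp, a platelet chemokine precursor, rose by 5.67 ± 0.30 (SE, log2), the integrin chain Itga2b by 1.16 ± 0.17 and platelet factor 4, Pf4, by 1.11 ± 0.20, while Vwf, von Willebrand factor, fell by 1.04 ± 0.17 (limma adjusted p = 5.11e-04, 0.0104, 0.023 and 0.0162). The Pf4 call held only without dKO replicate 2 among the left-out arrays (adjusted p up to 0.0732) and was lost with the replicate block (0.0567), and the Vwf call was lost without control replicate 2 or dKO replicate 1 or 3 (up to 0.0585). Of 13 neutrophil granule genes none passed limma's test, with 2 lower at an unadjusted p of 0.05. Mpo, myeloperoxidase, read 5.74, 9.04 and 5.56 in dKO arrays, against 8.23, 10.58 and 8.58 in control arrays (adjusted p = 0.236, and 0.0291 with the replicate block), and Ngp (-0.60 ± 0.16), Camp (-0.49 ± 0.20) and Prtn3 (-0.59 ± 0.30) also did not pass. None of 7 B cell genes and none of 8 T and NK cell genes passed limma's test, also at an unadjusted p of 0.05. The most different by p were Cd79b (0.33 ± 0.16), Vpreb1 (-1.03 ± 0.63), Pax5 (0.20 ± 0.18) and Ebf1 (0.19 ± 0.16) for B cells. For T and NK cells they were Klrd1 (0.91 ± 0.52), Cd3e (0.26 ± 0.19), Ncr1 (0.34 ± 0.25) and Cd4 (-0.18 ± 0.13).

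Of 5 erythroid genes, the transcription factor Klf1 fell by 1.64 ± 0.26 (SE, log2, limma adjusted p = 0.015), and Hba-a1 (0.18, in the background range on all arrays), Epor (-0.56) and Slc4a1 (-0.63) did not pass. Of 11 measured genes of stem cells and of the sort gate, 1 rose and 4 fell. Tek fell by 2.25 ± 0.18, Hlf by 1.66 ± 0.28 and Kit by 0.87 ± 0.12 (limma adjusted p = 0.0022, 0.0178 and 0.0101), and Hoxb5, added to the named genes after its value was seen, by 1.10 ± 0.24 (0.0416), while Cd48, an antigen the sort selects against, rose by 1.16 ± 0.21 (adjusted p = 0.0214). The Hlf call was lost without control replicate 1 or 3 (up to 0.0584) and with the replicate block (0.0501), and the Cd48 and Hoxb5 calls held only without dKO replicate 3 among the left-out arrays. Both were also lost with the replicate block (0.0659 for Cd48 and 0.096 for Hoxb5), and Hoxb5 with median centring (0.053). The part of these other cells, and of changes within the sorted cells themselves, in the C3ar1, Mrc1 and C1qb values was not tested.

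The genes with profiles most like that of C3ar1 were sought across the whole array. Likeness was measured as the root mean square difference over the 6 arrays between log2 profiles, each less its own control mean, among 18192 genes. This measure depends on the size of the step between the groups. C3ar1 differed by 4.02 and the other members by 2.05 or less on their brightest probe sets. They could therefore not rank close to C3ar1, whatever their order of arrays. The closest was Cd244a, a SLAM-family receptor of NK and myeloid cells, at 0.18. It read 11.32, 11.15 and 10.96 in dKO arrays, against 7.06, 7.12 and 7.52 in control arrays. Next came Ffar2, a receptor for short-chain fatty acids (0.31), the actin regulator Enah (0.48), Selp, the adhesion receptor P-selectin (0.56), and the activation antigen Cd69 (0.61). The same 5 genes came out after quantile normalization and among brighter probe sets alone. The mean profile of the C1q chains joins differences of 1.79 (C1qb), 0.49 (C1qa) and 0.29 (C1qc), so it is the profile of no single chain. For that mean profile the closest were Atp5pb, a subunit of the mitochondrial ATP synthase (0.04), the vesicle fusion protein Snap29 (0.06), the scaffold Slc9a3r1 (0.06), the proton pump subunit Atp6v0d1 (0.07) and the integrin chain Itga6 (0.07). Only 2 of these, Atp5pb and Snap29, were also among the 5 closest after quantile normalization. A profile that mainly steps between the groups has many near neighbours, and nothing about shared control is read from them.

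**Figure D4:**
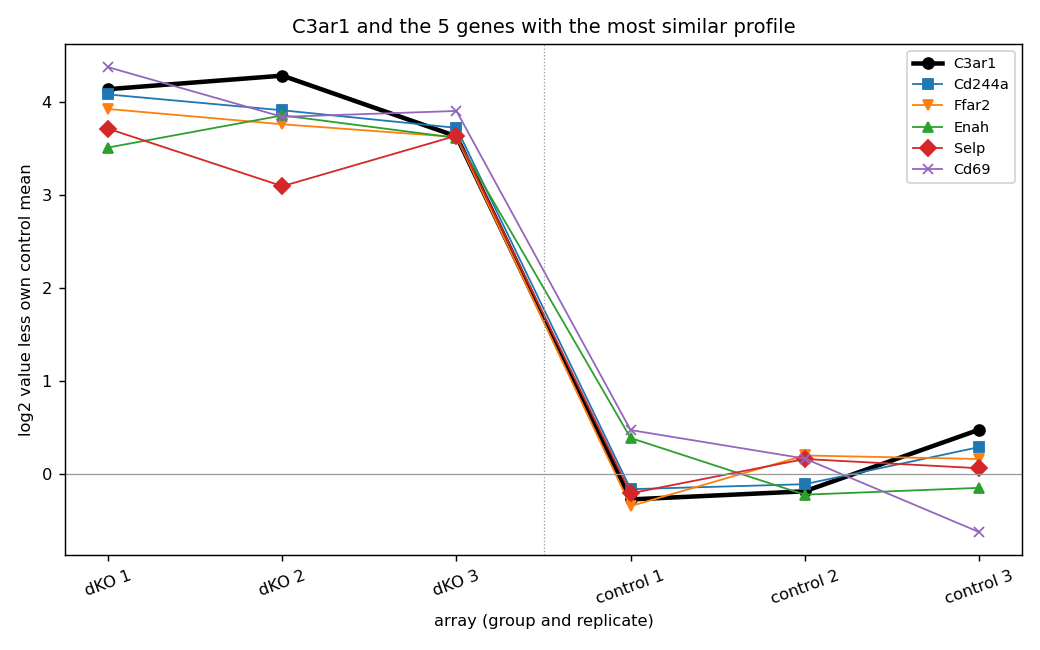
Log2 value less the gene's own control mean on each array, dKO arrays at left and control arrays at right, for C3ar1 (black) and the 5 genes with the smallest root mean square difference from it. C3ar1 stands at 4.14, 4.29 and 3.63 in dKO arrays, and Cd244a, the closest, at 4.08, 3.91 and 3.72.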

How the data were processed

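The authors deposited RMA expression values on a log2 scale, 1 column per array. The submitters' processing notes name RMA, with version and settings not given in the sources used here. That the unit is log2 follows from the range of the deposited values, 1.49 to 13.85. RNA was Trizol-extracted and amplified over 2 rounds, per the labels' protocols, which can distort differences, and scaling between arrays hides any change in total RNA.

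Groups came from the sample titles. The array annotation gave 34945 of 45037 non-control probe sets 1 symbol, 932 several and 9160 none; 0 symbols changed through RefSeq. Each gene was read from its brightest probe set (mean of 6 arrays). All 45037 probe sets were fitted with limma 3.58.1 in R 4.3.3 (lmFit, eBayes, dKO minus control, 4 residual and 3.19 prior degrees of freedom), with Benjamini-Hochberg adjustment and a threshold of 0.05, and the fit was tested on simulated data. Each array is a separate pool, so the test sets a difference against the spread between pools, moderated by that of all probe sets. With 3 arrays per group the precision is limited. Pools held 3 dKO or 2 control mice, so pool size differed between the groups, and its part was not tested. The 10 members and 13 further lists (182 genes, 159 measured) were chosen with earlier results of these data known. Named from each list were the 4 genes with the smallest p, besides the members, Myc, Mycn and the 5 closest profiles. Hoxb5 was added as a called gene. Alternatives were quantile normalization, median centring, a minimum mean level, eBayes with trend and robust, array weights, the replicate block, left-out arrays and the mean over probe sets.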

Additional observations from a re-analysis of the deposited data

How the results depend on the processing

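The differences of the 14 member probe sets moved by less than the spread between replicates in all 156 recomputed values. Those of the 9 probe sets without overlap kept their sign. Most of this was fixed in advance. The filter, the trended robust prior and the replicate block leave a difference unchanged. Leaving out 1 array moves a group mean by less than the range of its group, and cannot reverse groups that do not overlap. Only quantile normalization, median centring and array weights could have come out otherwise. Values near 0 changed sign with 1 array left out: Aif1 ranged from -0.47 to 0.22, Cd5l from -0.17 to 0.12 and C1qb 1417063_at from -0.09 to 0.10. C3ar1 on 1419483_at ranged from 3.88 to 4.26 on the log2 scale. Counts of calls moved more. With 1 array left out, 708 to 893 probe sets across the array were called higher and 630 to 812 lower, 1 to 3 member probe sets higher, 3 to 7 genes of the complement, scavenger and other macrophage lists higher and 1 to 3 lower, and 5 to 6 genes of the other cell type lists higher. With all arrays these counts were 1608, 1538, 6, 7, 3 and 9. The filter to probe sets with a mean of at least 5.90 left 1 member probe set called, with 3 genes higher and 5 lower in the first set of lists. It removes dim probe sets, and of the members only C3ar1 1419483_at and Lyz2 stayed in. Masp2, Cd55 and Clu were newly called lower under it, with fewer tests to adjust for. With the replicate block the counts were 814 higher and 716 lower across the array, 3 member probe sets, 4 genes higher in the first set of lists and 5 in the second. Arrays of equal number did not deviate together (correlations of -0.02, 0.00 and 0.01 across probe sets), so the number was not taken as a pairing. The dim Mycn probe set 1425923_at, not called, had differences of -0.19 to 0.076 with 1 array left out, turning positive (0.076) without dKO replicate 3; the cause was not tested. Dim probe sets near the background range limit what can be said of Adgre1, Cd5l, C1qc and 1417063_at.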
